A study of Mus musculus with 2 samples.

Results

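The genes described here are 10 annotated mouse microRNA genes that gave almost no reads of their own while many reads lay on the opposite strand of the same stretch of genome. They were chosen from the counts, as genes with at most 10 reads on their own strand and over 5000 on the opposite strand in both libraries, with a lower limit of 2000 for Mir129b. These 10 stand among 2202 microRNA genes in all. The names are Mir126b, Mir219b, Mir3065, Mir129b, Mir3544, Mir30f, Gm25927, Gm24083, Gm25301 and Gm24321. Since the counts on both strands chose them, those counts are given as a description and carry no test.

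MicroRNA-seq had been performed on total RNA from hippocampus, labelled as a layer of that region, of male B6CASTF1/J mice aged 36 days, a cross of C57BL/6J and CAST/EiJ. The series holds 2 libraries of this 1 group, labelled biological replicates 1 and 2; the tissue samples are separate, the donor label is the same for both, and there is no second condition. Replicate 1 gave 4404040 own-strand counts over all microRNA genes and replicate 2 gave 5279877. Reads that matched several places, 40.3% and 46.5% of all reads, entered no gene's count. Of 8 neuronal marker genes, 7 were in the files and 6 had 10 or more counts in both libraries. The 7 summed to 91109 and 96654 CPM (own-strand counts scaled to a total of 1000000). The liver marker Mir122 stood at 30.2 and 27.7 CPM. The 3 muscle markers summed to 98.1 and 107 CPM, all from Mir206, with Mir1a-1 and Mir133a-1 at 0. Reads of a gene with a near-identical copy match several places and are not counted. The 0 counts of Mir1a-1 and Mir133a-1 alone thus do not show that these RNAs were absent. No microRNA defines the hippocampus itself, so the marker check speaks for neural tissue only.

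A microRNA is cut by Drosha and Dicer from a hairpin, a transcript that folds back on itself, and the mature RNA of about the length of a small RNA read then finds its targets mainly through its seed, bases 2 to 8. The reverse complement of a hairpin is again nearly a hairpin, so a locus transcribed from both strands can in principle yield different microRNAs with different seeds. Some such mirror hairpins are known to be used, as at the Hox clusters of flies, and many others are annotated from sequence or from few reads. In a stranded small RNA library the strand of each read tells the mirror hairpins apart.

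Every one of the 10 genes overlapped exactly 1 other microRNA gene, on the opposite strand, and that partner is a well-known microRNA. The sequences of 6 mirror pairs are shown first, because within a locus the strand of a read separates the mirror genes. Strand is not the only limit on the counts of these pairs. Mir219b and Mir219a-2 each have 20 bases in common with 2 further genes, and Mir129b and Mir129-2 with 1. A read from such a common stretch would have entered no count. Low counts of Mir219b and Mir129b therefore do not show that their printed RNAs were absent. Mature sequences are from RefSeq on GRCm38.p6, the assembly of mm10, 5′ to 3′, with the seed in capitals. Of the 10 genes, 6 matched a mature entry there, and Gm25927, Gm24083, Gm25301 and Gm24321 did not. In each pair below the silent RNA comes first and the partner RNA over the same bases second.
miR-126b-5p: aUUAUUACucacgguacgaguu
miR-126a-3p: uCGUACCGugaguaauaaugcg
miR-219b-3p: aGAAUUGCguuuggacaaucagu
miR-219a-5p: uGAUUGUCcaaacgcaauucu
miR-3065-5p: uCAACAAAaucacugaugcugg
miR-338-3p: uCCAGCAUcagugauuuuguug
miR-129b-5p: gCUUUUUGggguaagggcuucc
miR-129-2-3p: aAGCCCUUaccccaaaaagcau
miR-3544-5p: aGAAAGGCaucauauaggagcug
miR-337-3p: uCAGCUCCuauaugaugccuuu
miR-30f: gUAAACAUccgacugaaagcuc
miR-30e-3p: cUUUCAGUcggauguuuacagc

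The mirror RNAs are complementary over nearly their whole length. The unbroken complementary stretch was 19 bases for miR-126b-5p with miR-126a-3p and for miR-30f with miR-30e-3p, 20 for miR-129b-5p with miR-129-2-3p, and 21 for miR-219b-3p with miR-219a-5p, miR-3065-5p with miR-338-3p and miR-3544-5p with miR-337-3p. None of the 10 listed mature RNAs of the silent genes has the seed of a listed RNA from its partner. Their 10 seeds occur in no other of the 1679 mature names in the table, where 72.1% of all names have a seed to themselves. Among the 16 listed partner RNAs, which come from 9 of the 10 partners, 3 share a seed with other names, namely let-7e-5p, miR-30e-5p and miR-30e-3p. Mir378a has no listed RNA, and some arms of other partners are absent. The seed counts therefore cover listed RNAs only.

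Against the other arm of the same hairpin, some silent RNAs look like near copies of the abundant one, shifted by a base or more. Among the listed RNAs, the seed of miR-30f is found in miR-30e-5p from its base 3, and the seed of miR-129b-5p in miR-129-5p from its base 1. No RNA from the 5′ arm of Mir126a is listed, so none was compared. That arm of the hairpin does hold the seed of miR-126b-5p. The longest identical stretch is 10 bases between miR-30f and miR-30e-5p, 10 between miR-126b-3p and miR-126a-3p, and 7 between miR-129b-5p and miR-129-5p. These sequences show the resemblance, with the seed again in capitals.
miR-30e-5p: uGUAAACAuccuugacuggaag
miR-129-5p: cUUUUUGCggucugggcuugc
miR-126b-3p: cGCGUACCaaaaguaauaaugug
Over whole annotated hairpins, the longest stretch that a silent gene has in common with its partner in the same direction was between 5 and 12 bases over the 10 pairs, with a median of 8. No stretch of 20 bases was therefore shared within a pair, so a read of that length could match only 1 strand of these loci exactly.

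The 4 genes with Gm symbols have no RefSeq entry, and their hairpins are longer than those of their partners. The hairpin of Gm25927 on the minus strand (chr17:17830343-17830459) and that of Mirlet7e on the plus strand (chr17:17830352-17830444) are printed from the GENCODE M21 transcripts in DNA letters, with the bases of the let-7e mature RNAs, or their complement, in capitals. They show a mirror entry that covers its partner whole.
Gm25927: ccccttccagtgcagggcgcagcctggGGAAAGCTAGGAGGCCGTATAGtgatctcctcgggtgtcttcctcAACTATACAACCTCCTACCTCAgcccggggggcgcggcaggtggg
Mirlet7e: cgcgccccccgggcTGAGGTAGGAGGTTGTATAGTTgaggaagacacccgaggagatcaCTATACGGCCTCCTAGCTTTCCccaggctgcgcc
Gm24321 and Mir409, in contrast, have nearly the same ends on opposite strands (chr12:109743158-109743237 and chr12:109743158-109743236), and the capitals mark the miR-409 mature RNAs or their complement.
Gm24321: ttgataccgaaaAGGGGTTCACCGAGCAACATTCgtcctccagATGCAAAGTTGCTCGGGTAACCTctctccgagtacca
Mir409: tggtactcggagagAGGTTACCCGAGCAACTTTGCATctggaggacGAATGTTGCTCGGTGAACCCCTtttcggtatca

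**Figure D1:**
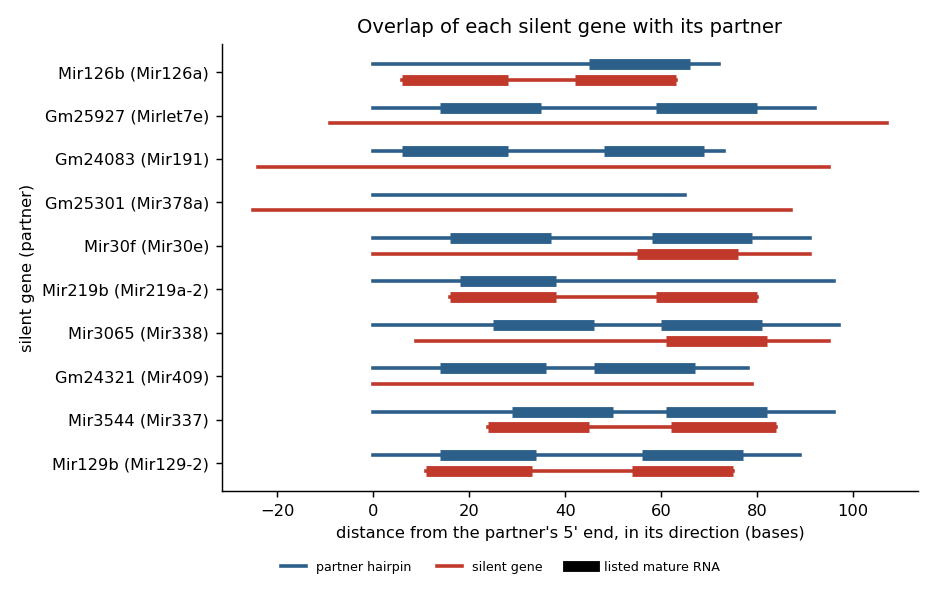
Position of each silent gene (red) and its partner (blue) in bases from the 5′ end of the partner, read in the direction of the partner; thin lines are annotated hairpins and thick bars are mature RNAs listed in RefSeq. The 4 genes with Gm symbols reach past or to the end of their partners and carry no listed mature RNA, while 5 of the 6 with Mir symbols lie inside theirs and Mir30f has the same ends as Mir30e.

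The overlap was between 58 and 93 bases long in the 10 pairs. All 4 Gm genes contained their partner, 5 Mir genes lay inside theirs, and Mir30f shared both ends with Mir30e (chr4:120772606-120772697). The silent genes lay 5 on the plus and 5 on the minus strand. None of the 10 lay inside another annotated gene on its own strand, whereas 8 of the 10 partners did on theirs. Partner hosts were Egfl7 (exon) and Gm20532 (intron) for Mir126a, and 4833445I07Rik (exon) for Mir191. Introns held the partner in Spaca6 (Mirlet7e), Ppargc1b (Mir378a), Nfyc (Mir30e), Aatk (Mir338), Mirg (Mir409) and Mir670hg (Mir129-2). Exon means that an exon of any annotated transcript of the host overlaps the hairpin, which may be an intron of other transcripts. In the other 22 overlapping pairs of the annotation, 5 of the less abundant genes and 11 of the more abundant genes had a host on their strand.

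At the vessel wall locus, Mir126b (ENSMUSG00000105799.1, chr2:26591363-26591420, minus strand) mirrors Mir126a, the endothelial microRNA in Egfl7. Mir126b had 0 own-strand reads in replicate 1 and 0 in replicate 2, against 42848 and 200298 on the opposite strand. These were the most opposite-strand reads of any of the 10 genes in replicate 2, and not a single read lay on the strand of Mir126b in either library. Taken as a limit of 3 reads, a count of 0 allows 0.00700% of the reads of the locus in replicate 1 and 0.00150% in replicate 2; the upper ends of the 95% exact binomial intervals are 0.00861% and 0.00184%. Such limits, and all intervals given here, cover counting error only, because reads amplified by PCR and lacking molecular identifiers can be copies of 1 molecule.

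Mir219a-2 and Mir338, at loci typical of oligodendrocytes, the myelin-forming cells whose maturation miR-219 and miR-338 promote, each have a mirror gene. Mir219b (ENSMUSG00000105010.1, chr2:29845647-29845711, plus strand) had 0 and 1 own-strand reads in replicates 1 and 2, against 15119 and 18949 opposite to it, where Mir219a-2 lies. Mir219b and Mir219a-2 each share 20 bases with 2 further microRNA genes. Any reads from those common stretches were left out, so these counts are uncertain and do not show that miR-219b-3p was absent. Mir3065 (ENSMUSG00000105524.1, chr11:120014767-120014853, plus strand), the mirror of Mir338 in the Aatk intron, had 1 and 2 own-strand reads against 10465 and 10877. Mir3065 was the only gene of the 10 besides Mir129b with a read on its own strand in both libraries. Its share of the reads of the locus was 0.00955% in replicate 1 (95% exact binomial interval 0.000242 to 0.0532) and 0.0184% in replicate 2 (0.00223 to 0.0664).

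Mir129b (ENSMUSG00000106336.1, chr2:94241378-94241442, plus strand) mirrors Mir129-2, one of the genes of miR-129, a brain microRNA known for limiting neuronal excitability. It had 4 own-strand reads in replicate 1 and 1 in replicate 2, against 2842 and 11648 on the opposite strand. Its share was thus 0.140% in replicate 1 (95% exact binomial interval 0.0382 to 0.359) and 0.00858% in replicate 2 (0.000217 to 0.0478). The share in replicate 1 was the highest of the 10 genes in either library, and Mir129b gave 4 of the 5 own-strand reads found over all 10 genes in that library. Mir129b and Mir129-2 each have 20 bases in common with 1 further gene, so their counts are uncertain as well.

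Mir3544 and Gm24321 lie opposite microRNAs of the imprinted Dlk1-Dio3 region, and these opposite microRNAs are read from the maternal chromosome. Mir3544 (ENSMUSG00000105210.1, chr12:109585813-109585873, minus strand), opposite Mir337, had 0 and 1 own-strand reads against 8920 and 10129. Gm24321 (ENSMUSG00000093089.1, minus strand), opposite Mir409, had 0 and 0 against 5580 and 14180. Gm24321 was the gene nearest above the limit of 5000. Just under that limit lay Gm25252, opposite Mir376a of the same region, with 0 own-strand reads in both libraries and 4016 and 9317 opposite reads, which met the limit in replicate 2 alone. The next below were Mir497b, with 0 own-strand reads and 2200 and 4778 opposite reads, and Gm24111, opposite Mirlet7f-1, with 0 and with 1436 and 1045. Gm25252 and Mir497b would have met the limit of 2000, which was applied to Mir129b alone.

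The remaining 4 genes mirror microRNAs found in many tissues. Gm25927 (ENSMUSG00000092799.1), opposite Mirlet7e of the let-7 family of differentiated cells, had 0 and 0 own-strand reads against 107658 and 92811. Gm24083 (ENSMUSG00000092915.1, chr9:108568295-108568414, minus strand), opposite Mir191, had 0 and 1 against 59918 and 72091. The read on Gm24083 was 1 among 72092 at the locus in replicate 2, a share of 0.00139% (0.0000351 to 0.00773). Gm25301 (ENSMUSG00000093026.1), opposite Mir378a in the metabolic regulator gene Ppargc1b on chromosome 18, had 0 and 0 against 20284 and 20286. Mir30f (ENSMUSG00000105585.1), opposite Mir30e in Nfyc, had 0 and 0 against 10446 and 29082.

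**Figure D2:**
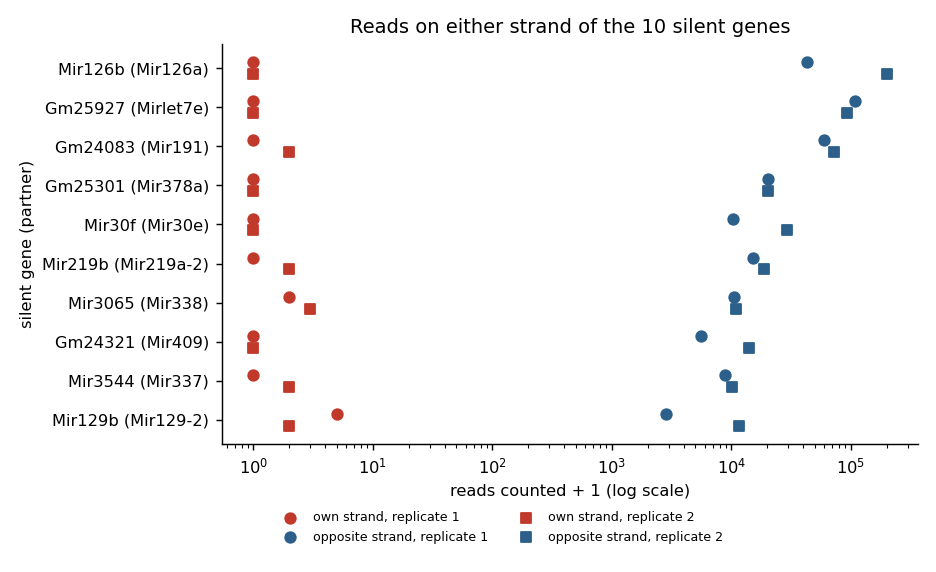
Reads counted on the own strand (red) and on the opposite strand (blue) of each silent gene in replicate 1 (circles) and replicate 2 (squares), plus 1, on a log axis; the partner is named in brackets. Own-strand reads lie between 0 and 4 and opposite-strand reads between 2842 and 200298, so the groups do not overlap, as the choice of the genes requires.

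Across the 10 genes, 5 had 0 own-strand reads in both libraries (Mir126b, Gm25927, Gm25301, Mir30f and Gm24321) and 5 had between 1 and 4 in a library. Replicate 1 had 5 own-strand reads in all, in 2 genes, and replicate 2 had 6, in 5 genes. Of all microRNA genes, 79.7% had 10 or fewer own-strand reads in both libraries, so a count near 0 was the rule, and 0.409% also had over 5000 opposite reads in both. All 9 genes with that many opposite reads had 10 or fewer own-strand reads. In the summed counts, the own strand took 0.00176% of the reads of the 10 loci in replicate 1 (5 of 284093, 95% exact binomial interval 0.000571 to 0.00411) and 0.00125% in replicate 2 (6 of 480369, 0.000458 to 0.00272). Without Mir129b the shares were 0.000356% (0.00000900 to 0.00198) and 0.00107% (0.000346 to 0.00249).

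How often reads lie on the wrong side of a gene that has no microRNA gene opposite gives a background for these shares. Among the 2138 genes in no overlap, 145 had 1000 or more own-strand reads in replicate 1 and 159 in replicate 2, and 138 and 147 of these had 0 opposite reads. Their summed opposite share was 0.000566% (95% exact binomial interval 0.000358 to 0.000849) and 0.000782% (0.000550 to 0.00108) in replicates 1 and 2. Since the silent genes were chosen for own-strand reads near 0, their shares are set beside this background with no comparison drawn. Single abundant genes reached more: Mir150 had 5 opposite reads beside 3663 of its own in replicate 1, a share of 0.136%, and Mir708 had 10 beside 9196 in replicate 2, a share of 0.109%. Over all 2138 genes, including those with few reads of their own, the opposite share was 0.00365% and 0.00352%.

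The reads counted opposite to a silent gene were the reads of its partner, seen from the other side. In 7 of the 10 pairs the 2 numbers were equal in both libraries. In the other 3 the partner had a few more: Mir126a had 42849 and 200301 reads, which is 1 and 3 more than lay opposite Mir126b; Mir219a-2 had 0 and 1 more; Mir129-2 had 7 and 8 more. Mir126a, Mir219a-2 and Mir129-2 extend beyond their mirror genes at both ends, as do Mir337 and Mir338. Summed over the pairs, partners had 284088 and 480363 own-strand reads, and 284080 and 480351 were counted opposite the silent genes.

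A count that ignores strand loses these partners almost whole, because a read that lies in genes on both strands is set aside as ambiguous. In the either-strand column, the 10 partners together kept 8 of 284088 reads in replicate 1 and 12 of 480363 in replicate 2, or 0.00282% and 0.00250%. The reads kept were, pair by pair, equal in number to those by which the partner exceeded the reads opposite the mirror gene: 1 and 3 for Mir126a, 0 and 1 for Mir219a-2, 7 and 8 for Mir129-2 and 0 for the other 7 partners. By strand, these partners took 6.45% of all own-strand counts in replicate 1 and 9.10% in replicate 2, a mean of 7.77% ± 1.87 (SD, n = 2). The ambiguous reads numbered 295823 and 502531, of which 96.0% and 95.6% lay opposite the 10 silent genes. The opposite-strand reads of all 64 overlapping genes came to the same 295823 and 502531.

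The annotation holds 32 pairs of microRNA genes that overlap on opposite strands, with 64 genes, and the 10 silent genes are the less abundant side of the 10 pairs with most reads, ranked over both libraries, as the choice by read number all but fixes. The other 22 pairs, which did not meet the choice, give the same measure at lower depth over both libraries together. Of these, 14 had 100 or more reads in each library, and in 12 of the 14 at least 99% of the reads lay on 1 strand in both libraries. The 5 with the most reads were Mir376a with Gm25252, Mir497 with Mir497b, Mirlet7f-1 with Gm24111, Mir380 with Gm25750 and Mir299a with Mir299b. The first 4 of these mirror genes had 0 reads in both libraries and Mir299b had 1 and 1, against 714 and 1509 for Mir299a. Over the 22 pairs, the less abundant gene had 0 reads in 16 in replicate 1 and in 18 in replicate 2, including 2 pairs with no read on either gene in both. Its summed share was 0.596% and 0.410%, most of it from Mir3074-1. Of all 2202 microRNA genes, 79.7% had 10 or fewer own-strand reads in both libraries, so a low count on 1 side is common. The 12 one-sided pairs among the 14 are therefore a description only.

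Both exceptions had counts on either strand. Mir3074-1, opposite Mir24-1, had 60 and 67 own-strand reads against 81 and 217, or 42.6% (95% exact binomial interval 34.3 to 51.2) and 23.6% (18.8 to 29.0) of the locus. Mir3107, opposite the red blood cell microRNA Mir486, had 5 and 21 against 101 and 94, or 4.72% (1.55 to 10.7) and 18.3% (11.7 to 26.5). Neither mirror gene was near 0 in both libraries. Both genes of the first pair share 20 bases with 2 further microRNA genes, and Mir3107 has a stretch of 22 bases in common with Mir486 itself. Reads from such stretches match several places and are not counted, so these 4 counts are uncertain. The same holds for 4 of the 12 one-sided pairs: Mir299a and Mir299b have 21 bases in common and Mir374b and Mir374c have 20, while the genes of the pairs Mirlet7f-1 with Gm24111 and Mir24-2 with Mir3074-2 each share 20 bases with 2 further genes. In the 10 silent pairs, 3 partners and their mirrors share 20 bases with another gene, namely Mir378a with Gm25301, Mir219a-2 with Mir219b and Mir129-2 with Mir129b, and their counts are uncertain in the same way.

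A list of 32 genes, chosen mainly for symbols of mirror or near-copy microRNAs, was checked in the same manner. Of these, 24 are in the files and 14 overlap a microRNA gene on the opposite strand, 13 as the less abundant side. Of the 13, 11 had 10 or fewer reads in each library and 7 had 0 in both. The 2 others were Mir3074-1 and Mir3107. Over all 2202 microRNA genes, 79.7% had 10 or fewer own-strand reads in both libraries, and only 778 had any. Being the less abundant side also favours low counts, so no result about mirror genes is read from these numbers. The list includes the 6 silent genes with Mir symbols, so its count is not independent of them.

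**Figure D3:**
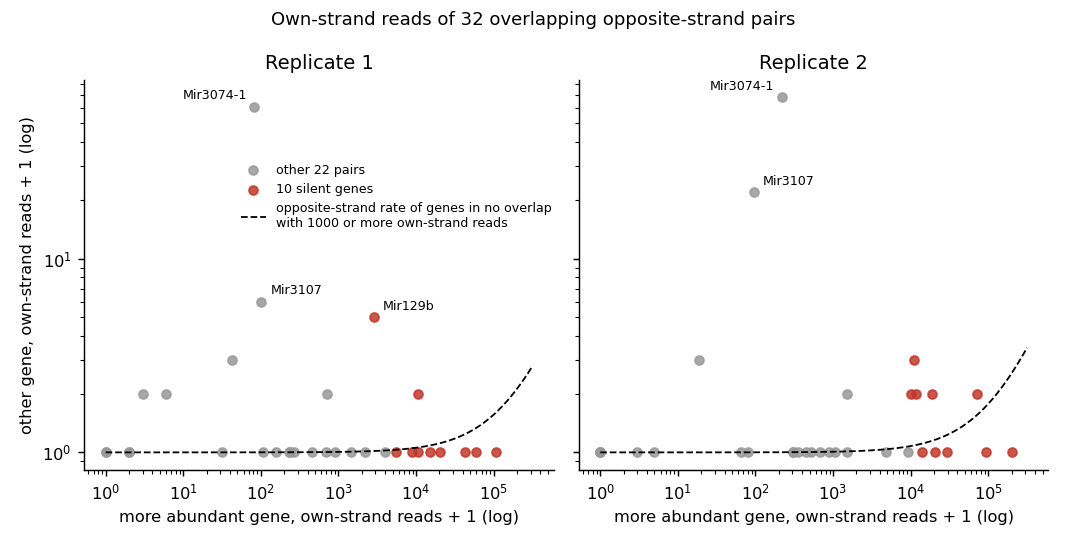
Own-strand reads plus 1 of the more abundant gene (horizontal) and of the gene opposite to it (vertical) in the 32 overlapping pairs, on log axes, for replicate 1 (left) and replicate 2 (right); the dashed line is the opposite-strand share of genes in no overlap with 1000 or more own-strand reads. The 10 silent genes (red) lie between 0 and 4 reads, as their choice by own-strand reads requires, while Mir3074-1 (60 and 67 reads) stands apart among the other 22 pairs (grey).

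The mirror strands were also compared by predicted folding, which played no part in the choice. The bases shared by both genes were folded in silico on either strand with the same length. Such a window leaves out any bases of either gene outside the overlap. It was the whole partner hairpin for the 4 Gm genes, the whole silent gene for 5 Mir genes, and both for Mir30f. The strand of the silent gene was predicted to be less stable than that of the partner in 9 of 10 pairs, with a median difference of 4.75 kcal/mol and a range of -0.40 to 9.70. The exception was Mir129b, at -24.0 kcal/mol against -23.6 for Mir129-2. Mir30f had the largest difference, at -42.1 kcal/mol against -51.8 for Mir30e, and Mir3544 followed at -23.5 against -32.0 for Mir337. Within the window Mir126b hardly differed from Mir126a, at -19.3 against -19.4. The less abundant strand was the less stable in 14 of the other 22 pairs, with a median difference of 0.85 kcal/mol and a range of -6.90 to 13.9. Whether the 10 differ from the 22 was not tested.

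The predicted structures were also compared by their base pairs. The partners' structures held 29 G-U pairs among 266 pairs over the 10 windows and those of the silent genes 17 among 260, and the partner had more G-U pairs in 8 of the 10 and more base pairs of any kind in 6. The silent strand had the more base pairs at Mir126b, Gm25927, Gm25301 and Mir3065. Gm25301 had 3 G-U pairs against 2 in Mir378a, and Mir3065 and Mir338 had 4 each. The partner of Mir129b had 1 against 0, although Mir129b was the more stable within the shared window. Whether G-U pairs go with the difference in stability was not tested. Over whole annotated hairpins, a comparison added after the data were seen, the silent gene was less stable in 7 of 10 pairs. The others were Gm25927, Gm24083 and Gm25301, which are longer than their partners. Among the 7 were Mir129b, at -24 kcal/mol against -48 for Mir129-2, and Mir126b, at -19.3 against -31.2 for Mir126a. Both of these partners extend beyond the shared window.

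**Figure D4:**
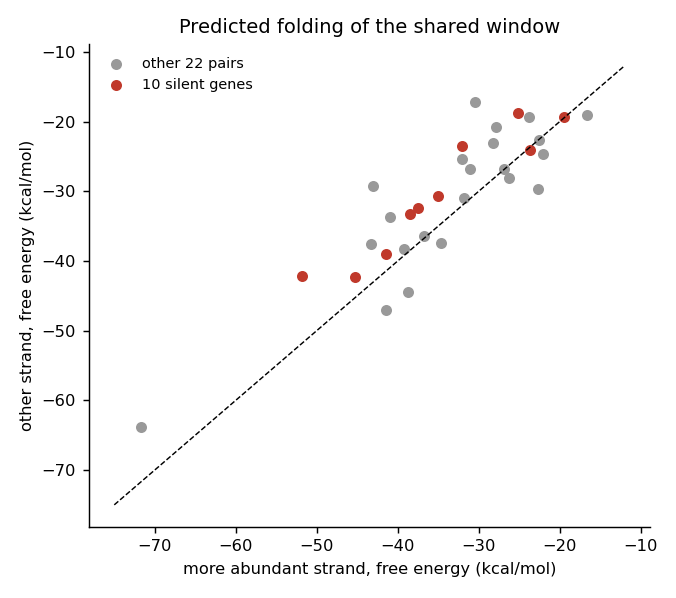
Predicted free energy in kcal/mol of the window shared by both genes, folded as the more abundant strand (horizontal) and as the other strand (vertical), for the 10 silent genes (red) and the other 22 pairs (grey). Points above the dashed line of equal energy are less stable on the less abundant strand, as 9 of the 10 silent genes are.

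Since the silent genes had fewer than 10 reads in total each, they could not be compared between the libraries, and their partners were compared in their place. Mir126a, Mir30e, Mir409, Mir129-2 and Mir219a-2 were higher in replicate 2, and Mirlet7e, Mir378a, Mir338 and Mir337 were lower, by a two-sided exact binomial test of each gene's reads, conditional on their sum and Benjamini-Hochberg adjusted over 504 genes. Of those genes, 32.5% were higher, 23.2% lower and 55.8% called in either direction, against 9 of 10 partners, which all have deep counts. The median log2 ratio of replicate 2 over replicate 1 was 0.02 over the 10 partners and 0.05 over all genes tested. The test describes these libraries and counts reads, not animals. With a coefficient of variation of 0.3 built in, 0 of the 10 partners differed after adjustment, and Mir126a and Mir129-2 had an unadjusted p under 0.05.

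Mir126a had 9729 CPM in replicate 1 and 37937 CPM in replicate 2, a ratio of 3.85 (95% exact interval 3.81 to 3.89). Mir143 and Mir145a, the other 2 vessel wall markers of the list of 3, had 6311 and 5658 CPM and 209 and 241 CPM. The list summed to 16250 and 43835 CPM with Mir126a in it, and its part in the difference was not tested. Mir129-2 stood at 647 and 2208 CPM, a ratio of 3.37 (3.24 to 3.51). Mir129-2 had 2849 and 11656 reads where Mir129b opposite to it had 4 and 1. Mir30e had 2372 and 5508 CPM, a ratio of 2.29 (2.24 to 2.35), and Mir409 had 1267 and 2686 CPM, a ratio of 2.09 (2.03 to 2.16). In these 4 loci the partner differed by over 2-fold between the libraries. The mirror genes held between 0 and 4 reads, which their choice fixed, so nothing can be read from this on whether they follow their partners.

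The other partners differed less. Mirlet7e had 24445 and 17578 CPM, a ratio of 0.711 (0.704 to 0.717), Mir378a 4606 and 3842 CPM (0.824, 0.808 to 0.841), and the oligodendrocyte gene Mir338 2376 and 2060 CPM (0.857, 0.834 to 0.880). Mir337 stood at 2025 and 1918 CPM (0.936, 0.910 to 0.963) and Mir219a-2 at 3433 and 3589 CPM (1.03, 1.01 to 1.06). Mir219a-2 was lower in replicate 2 when scaling used only genes with 100 or more counts, with a log2 ratio of -0.0874, and missed the threshold with DESeq2 size factors. Mir191 had 13605 and 13654 CPM, a ratio of 0.992 (0.981 to 1.00), and did not pass the exact binomial test (adjusted p = 0.199). It was called lower with DESeq2 size factors (log2 ratio -0.03, adjusted p = 0.00117 in the same exact test) and when scaling used only genes with 100 or more counts (log2 ratio -0.15, adjusted p = 1.53e-74). CPM values of different partners are not compared as levels, since capture may favour some sequences.

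**Figure D5:**
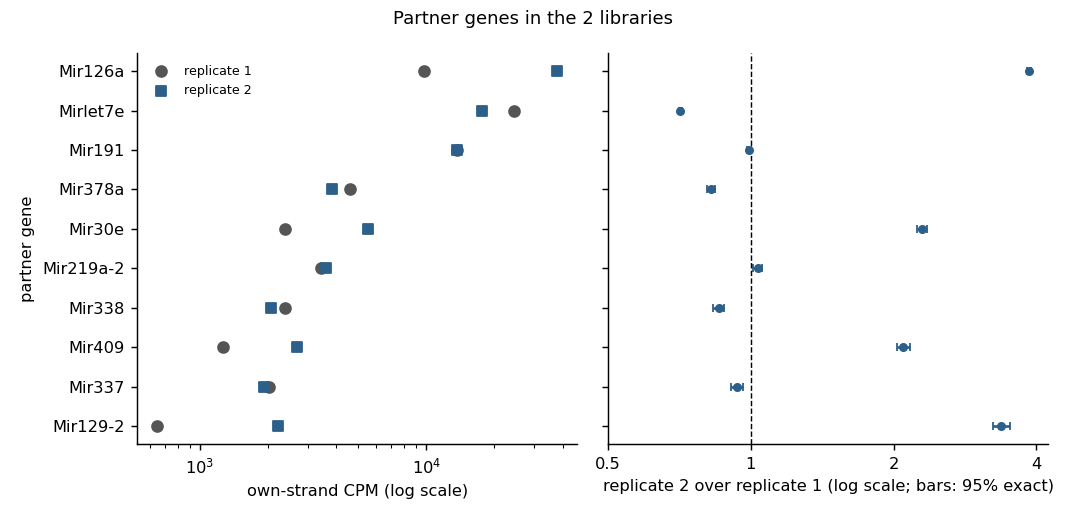
Own-strand CPM of the 10 partner genes in replicate 1 (grey circles) and replicate 2 (blue squares) on a log axis (left), and the ratio of replicate 2 over replicate 1 after TMM scaling with its 95% exact interval (right). Mir126a, Mir129-2, Mir30e and Mir409 lie above a ratio of 2, and the other 6 lie between 0.711 and 1.03.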

How the data were processed

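The authors aligned the reads to the mm10 build and counted them on GENCODE M21 microRNA genes, as notes beside the files state. Which aligner was used is not given in the sources used here. Values deposited are raw counts, with no normalization by the authors, in 3 columns that no header names: either strand, strand of the gene, opposite strand, as read from the values. The lines that name no gene (unmapped, multiply matching, no feature, ambiguous) held 64.7% and 65.4% of reads and were left out of totals.

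Gene overlaps, hosts and hairpins came from GENCODE M21 and mature sequences from RefSeq. Overlap meant 1 base or more on opposite strands. CPM is own-strand counts scaled to 1000000. Shares have exact binomial (Clopper-Pearson) intervals at 95%, and counts of 0 a limit of 3 counts. Libraries were compared by a two-sided exact conditional binomial test (scipy 1.17.1) on the 504 genes that reached 10 counts in total, Benjamini-Hochberg adjusted at 0.05, with library sizes scaled by TMM (factors 0.994 and 1.01) in edgeR 4.0.16 under R 4.3.3, tested on simulated data; log2 ratios added 1 CPM. A quasi-likelihood fit in edgeR was not made, since 1 group gives no contrast. The labels name biological replicates with 1 donor label in common, so p-values describe these libraries and their counting error only. Windows were folded with ViennaRNA 2.7.2. Near-identical copies share 20 bases among annotated microRNA genes. The alternatives were other scalings (DESeq2 1.42.0), minimums, thresholds, a pseudocount, added variation and each library alone.

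Named genes are the 10 silent genes, their partners, the 5 other pairs with most reads, the least one-sided pairs with 100 or more reads, and the neighbours of the limits. Genes named outside this rule (Mir150, Mir708 and the tissue markers) were chosen for their values or as controls. The silent genes and lists were chosen with earlier results of these data known.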

Additional observations from a re-analysis of the deposited data

How the results depend on the processing

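Of 96 alternative values, 77 kept their direction and their side of the threshold or stayed close. The number of silent genes was 5 when no own-strand read was allowed, 12 with an opposite-strand limit of 2000 for every gene, 7 with 10000, and 10 to 11 with either library alone. The pairs with 99% or more on 1 strand, 22 of 24, were 13 when 1000 or more reads were asked for, where fewer pairs can enter, and 22 in each library alone. The share of partner reads outside the mirror gene, also the share kept by the either-strand count, was 0.00250% to 0.00282% in either library alone. With a coefficient of variation of 0.3, 0 partners were called, 0 higher and 0 lower, with adjusted p from 0.0840 for Mir126a to 1. A minimum of 100 counts moved every log2 ratio by -0.13, which turned the log2 ratio of Mir219a-2 to -0.0874 and gave 4 higher and 6 lower. Mir191, not called, turned to 0.0052 with total-count scaling, and was called lower at -0.03 with DESeq2 size factors and -0.15 with the minimum of 100. DESeq2 size factors gave 4 higher and 5 lower. The library comparison has no value without a library. Depth limits a count of 0 to 0.681 and 0.568 CPM. No paired analysis was possible because there is 1 group.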
